A study of Oryzias latipes with 6 samples.

Results

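Genes that govern bone mineral were followed in the axial tissue of Japanese medaka (Oryzias latipes), a small bony fish, after embryonic exposure to the dioxin TCDD. They were chosen by symbol alone: symbols that begin with bglap or ankh, or that read alpl, SPARC, spp1, mgp, phex or enpp1, without regard to case or copy number. The rule found 8 of the 20459 genes in the authors' deposited table. 7 of its 8 patterns had a row, and mgp, the matrix Gla protein gene, is not analysed here. The pattern ankh took in ankhd1, an ankyrin repeat and KH domain gene that is not known for a role in mineral. It is reported as a member by spelling, which leaves 7 members that act on mineral or its matrix.

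The study asked how a short dioxin exposure early in development alters transcripts of the larval axial skeleton. The Orange-red Hd-dR strain was used, and the bath, given about 4 hours after fertilization, lasted 1 h and held 0.3 nM TCDD or only its solvent (0.1% DMSO). TCDD is a ligand of the aryl hydrocarbon receptor. At 20 days post fertilization the vertebrae were taken with the muscle, fat and dermis around them, and polyA RNA was sequenced on the Ion Torrent PGM. Each group had 3 libraries, each from a pool of 15 to 25 fish, at an RNA integrity number no lower than 9.9. The authors' deposited table holds 1 value per gene and group in FPKM, a read density scaled by gene length and by library size. No value per library is used here, so no SD can be given, the depth per sample is unknown, and statements of significance rest on the authors' own q-values. Genes past q 0.05 are called changed. Nothing in the labels says that the pools came from separate clutches, so their p-values may reflect only technical spread. The tissue is a mixture, and each of the marker lists for bone, muscle, skin and fat summed to well above 0 in both groups, though single markers were listed at 0.

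Bone mineral is laid down as calcium phosphate on a collagen scaffold made by osteoblasts. Alkaline phosphatase frees phosphate by cutting pyrophosphate, which blocks crystal growth, whereas ENPP1 makes pyrophosphate and ANKH carries it out of the cell. Matrix proteins that bind calcium or collagen, among them SPARC, osteopontin (spp1) and osteocalcin (bglap), join the scaffold. Osteocalcin is a late osteoblast product that is carboxylated with the help of vitamin K. PHEX is a protease of bone cells on which phosphate balance depends in mammals.

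SPARC fell with TCDD, and it was the 1 called member. By the authors' deposited table, 1 of 5 tested members was lower at q 0.05 and 0 were higher. Over all 3286 tested genes, 7.46% were called lower and 10.7% higher. Of the tested members, 3 had an unadjusted p under 0.05 (SPARC, spp1 and enpp1), against 32.6% of all tested genes. The share called among the members, 1 of 5, lies near the 18.2% called in either direction over all tested genes. Tested members had a median log2 fold change of -0.16, or -0.48 without ankhd1, beside 0.05 over all tested genes. Single values ran from -1.20 for SPARC to 0.73 for enpp1. Scaling both groups to equal FPKM totals would raise each log2 fold change by 0.25, which leaves SPARC at -0.95 and turns ankhd1 from -0.16 to 0.082, with no other tested member changing sign.

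**Figure D1:**
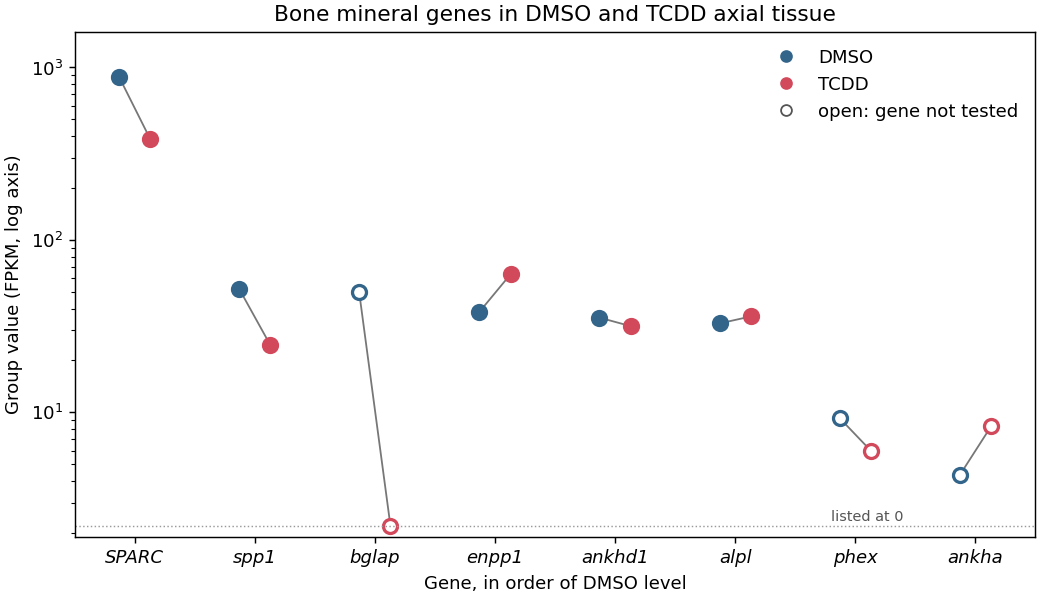
Group values of the 8 members in FPKM on a log axis, with the DMSO value in blue and the TCDD value in red, in order of the DMSO level. Filled circles are tested genes and open circles untested ones. SPARC goes from 884 to 384 FPKM, while alpl has 32.8 and 36.0 FPKM, and bglap is on the line for genes listed at 0 in TCDD.

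In DMSO the order of levels, in FPKM and so per length, was SPARC, spp1, bglap, enpp1, ankhd1, alpl, phex and ankha. In TCDD the order was SPARC, enpp1, alpl, ankhd1, spp1, ankha, phex and bglap. SPARC led in both groups, and spp1 stood ahead of enpp1 and alpl in DMSO and behind them in TCDD. The place of bglap in TCDD is that of a gene listed at 0 and is not read as a level. Between neighbours such as spp1 and bglap in DMSO, at 52.1 and 49.5 FPKM, whether the gap exceeds the spread between libraries cannot be told from 1 value per group. All 8 loci stand clear of any other locus in the table.

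SPARC, or osteonectin, is a secreted glycoprotein that binds calcium and collagen and is among the commonest non-collagen proteins of bone matrix, made also by fibroblasts. Its gene (ENSORLG00000011369) lies on chromosome 10 at 25898687 to 25911490, on the build of the table, which its header does not name. The authors' group values were 884 FPKM in DMSO and 384 FPKM in TCDD. That is 2.30-fold lower (log2 -1.20, authors' statistic -2.38, p = 5e-05 and q = 0.00105, from the authors' deposited table). Its p is the smallest the authors' test gave, a value that 157 genes share in the authors' deposited table. SPARC ranked at position 148 of all genes by level in DMSO and at 291 in TCDD. Among tested genes, 6.81% had a lower log2 fold change. SPARC made up 79.9% of the summed FPKM of the members in DMSO and 69.4% in TCDD. Before and after the locus on the chromosome, the neighbours slc36a1 (16.4 and 15.7 FPKM, not tested) and g3bp1 (82.4 and 68.4 FPKM, q = 0.571) were not called in the authors' deposited table. This is a tissue of several cell types, so fewer cells of a type and less RNA per cell cannot be told apart.

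Relatives and partners of SPARC were mixed. For reference, 7.46% of all tested genes were called lower and 10.7% higher, with a median log2 fold change of 0.05. In the authors' deposited table, 2 of 5 tested genes of the list of SPARC family and collagen-binding partners fell and 0 rose. The 5 had a median log2 fold change of -0.40. Those that fell were SMOC1, a SPARC-related calcium-binding matrix protein, from 50.4 to 16.6 FPKM (authors' deposited table, q = 0.00891), and serpinh1b. The latter encodes the collagen chaperone HSP47 and went from 146 to 62.4 FPKM (authors' deposited table, q = 0.00249). The most abundant of the others, fstl1b, a secreted follistatin-like member of the family, had 414 and 315 FPKM (authors' deposited table, q = 0.395). The thrombospondin gene THBS1 (1 of 2) had 60.7 and 62.6 FPKM (authors' deposited table, q = 0.925). The matrix protease gene ctsk, also in this list, had the higher value in TCDD, at 70.8 and 126 FPKM (log2 0.84), and was not called (authors' deposited table, q = 0.0558). Among the untested rows SMOC2 had 24.7 and 16.8 FPKM, and spock3 (2 of 2) had 4.87 and 6.27 FPKM. The closest relative of SPARC, sparcl1, had 1.04 FPKM in DMSO and was listed at 0 in TCDD. That level lies below 13.7 FPKM, the lowest mean of a tested gene. Untested rows of this list were higher in DMSO for 8 genes and in TCDD for 3.

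Osteocalcin could not be compared. The authors' group value of bglap (ENSORLG00000004316) was 49.5 FPKM in DMSO, and the gene was listed at 0 in TCDD and marked as not tested. Why bglap is listed at 0 was not tested, so the 0 is not read as absence. The splicing factor gene lsm7 had the mirrored pattern, with a DMSO value of 0 beside 128 FPKM under TCDD. Unlike bglap, lsm7 was tested, and it was called higher (authors' deposited table, q = 0.00105). The bglap locus, on chromosome 1 at 14895925 to 14896314, is 390 bases long, and 3.97% of all loci are shorter. Tested genes have a median locus length of 5973 bases. FPKM divides by length, so a single read weighs more on a short locus than on a long one.

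Some values on loci as short as that of bglap were whole multiples of the smallest. Of 33 genes with loci of 380 to 400 bases, 9 were above 0 in DMSO and 11 in TCDD, and the smallest values above 0 were 4.24 and 3.63 FPKM. In TCDD, the unnamed loci of 387 bases that were above 0 in that group only had 3.63, 7.26 and 18.2 FPKM, which are 1, 2 and 5 times the smallest to within 0.001. Other values in the window were not such multiples: H2AFY (3 of 3), also 387 bases long, had 14.3 FPKM in TCDD and 5.09 FPKM in DMSO, and TMEM74 (1 of 2) had 12.5 FPKM in TCDD. The loci of 387 bases above 0 in DMSO only were an unnamed one at 4.24 FPKM and TMEM100 (2 of 2) at 27.0 FPKM. The larger is not a whole multiple of the smaller, so the pattern was not seen in DMSO, the group in which bglap has its value. The DMSO value of bglap is 11.7 times the smallest DMSO value in that window. If that smallest value stands for a single read on an unspliced locus of this length, bglap rests on about that many reads over the 3 DMSO libraries. Its exon length is not used here, and a shorter spliced length would mean fewer reads. The 4 tested genes of the window had a mean of the group values of at least 48.4 FPKM, while the mean for bglap was 24.8 FPKM.

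A value in 1 group beside a 0 in the other was common on short loci, in either direction. Of the 981 loci under 500 bases, 39 (3.98%) were tested, beside 16.1% of all genes. Of the 228 that were above 0 in at least 1 group, 18.4% were listed at 0 in TCDD only and 30.3% in DMSO only. On loci of 5000 bases and more these shares were 4.03% and 5.10%. Of the 95 loci under 500 bases with at least 20 FPKM in DMSO, 24 had a 0 in TCDD, bglap among them. The mirrored pattern was found for 31 loci under 500 bases. In the window of 380 to 400 bases, 3 genes were above 0 in DMSO only and 5 in TCDD only. The other genes of that window above 0 in DMSO only had lower DMSO values than bglap, 27.0 and 4.24 FPKM. The loci of the window with higher DMSO values than bglap, from 51.8 to 93.8 FPKM, were tested and were above 0 in TCDD. A value beside a 0 is therefore shared with other short loci, but in this window not at the DMSO level of bglap. No fold change is given for bglap.

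**Figure D2:**
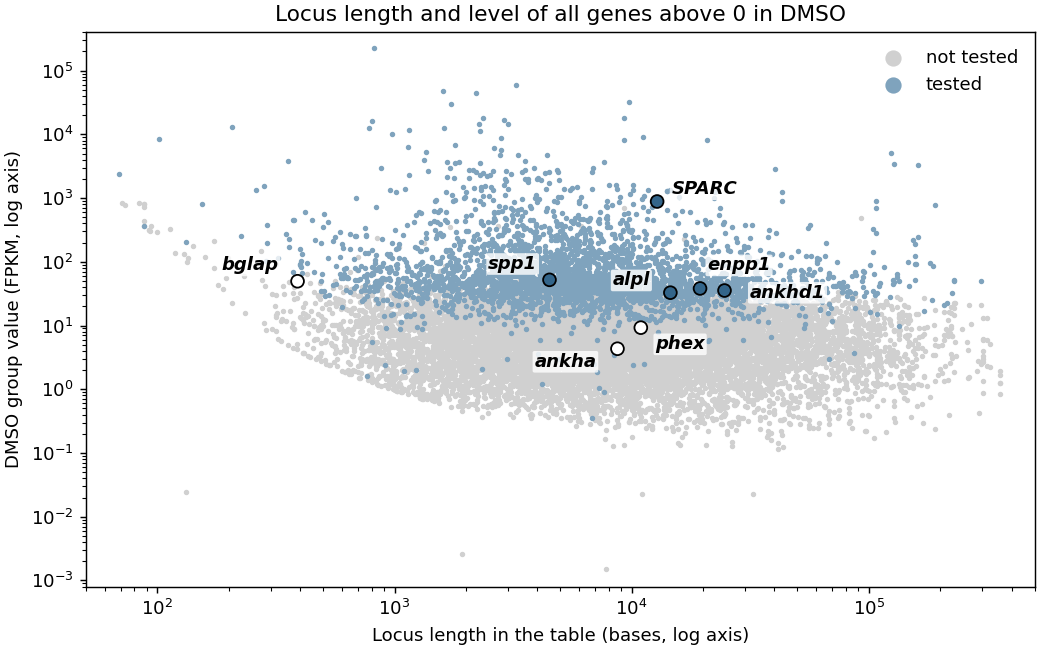
Locus length in bases against the DMSO group value in FPKM, both on log axes, for every gene above 0 in DMSO, with tested genes in blue and untested genes in grey. Members are outlined, with untested members in white; bglap, at 390 bases and 49.5 FPKM, sits in a region of short loci where the lowest values rise as loci shorten and most genes are untested.

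The enzymes that modify osteocalcin and other Gla proteins were mostly below the level at which genes were tested. In the authors' deposited table, 1 of 16 rows of the vitamin K and Gla protein list was tested, prrg2, a membrane Gla protein gene with 43.8 and 65.6 FPKM (q = 0.617). The carboxylase gene ggcx had 14.4 FPKM in DMSO and 22.5 in TCDD. The vitamin K reductase gene vkorc1 had 15.7 and 5.62 FPKM, and its relative vkorc1l1 12.2 and 10.9 FPKM. None of these untested values has a p.

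Alkaline phosphatase did not pass the test. The gene alpl (ENSORLG00000017066), on chromosome 5 at 32031301 to 32045863, encodes the tissue-nonspecific enzyme that osteoblasts hold on their surface. Its group values were 32.8 FPKM in DMSO and 36.0 FPKM in TCDD (log2 0.13, p = 0.703 and q = 0.817, from the authors' deposited table). The log2 fold change lay in the middle of the tested genes, 54.4% of which had a lower one. SPARC was 27.0 times as high as alpl in DMSO and 10.7 times in TCDD, on the FPKM scale. The neighbouring gene ece1, an endothelin-converting enzyme gene, rose from 12.3 to 40.6 FPKM (authors' deposited table, q = 0.00105).

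Other genes that handle phosphate and pyrophosphate were mostly untested. In the authors' deposited table, 1 of 4 tested genes of that list rose and 0 fell, out of 30 rows. Over all tested genes, 10.7% were called higher and 7.46% lower. The riser was slc20a1b, a sodium-dependent phosphate importer, from 23.4 to 64.1 FPKM (authors' deposited table, q = 0.0018). Its relative slc20a2 had 36.5 and 28.9 FPKM (authors' deposited table, q = 0.516). The phosphatase gene phospho1, which frees phosphate inside matrix vesicles, stood at 50.3 FPKM in DMSO and 4.27 in TCDD, yet was not called (p = 0.0818 and q = 0.214, from the authors' deposited table). Its locus is 842 bases long. A second copy, PHOSPHO1 (2 of 2), was untested, with 15.5 and 1.26 FPKM. The untested entpd5a, which is needed for bone mineral in zebrafish, had 12.9 and 2.66 FPKM. The ectonucleotidase nt5e (1 of 2), which turns AMP into adenosine and phosphate, had 14.8 and 5.92 FPKM and was untested too. The untested smpd3, a sphingomyelinase gene needed for normal bone mineral in mice, had 7.22 and 2.80 FPKM. Other untested genes had the higher value in TCDD: the phosphate cotransporter genes slc20a1a (1.47 and 7.83 FPKM) and slc34a2b (1.42 and 23.9 FPKM), and entpd5b (6.35 and 9.68 FPKM), the second copy of entpd5. The hormone gene stc1 was listed at 0 in DMSO and had 5.81 FPKM in TCDD, whereas its relative stc1l, also untested, had 19.7 and 4.80 FPKM. Untested rows of the list were higher in DMSO for 11 genes and higher in TCDD for 12.

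Osteopontin missed the threshold. This acidic phosphoprotein binds calcium and anchors bone cells to the matrix. The gene spp1 (ENSORLG00000020900) lies on the unplaced sequence ultracontig144 at 34500 to 39002. Its group values were 52.1 FPKM in DMSO and 24.6 FPKM in TCDD (log2 -1.09, p = 0.0181 and q = 0.0796, from the authors' deposited table). The log2 fold changes of spp1 and SPARC are close, but SPARC stands at 16.5 times the mean level of spp1, and with no value per library the difference between them was not tested. Of the secretory calcium-binding phosphoproteins and their kinases, 6 rows were found and 0 were tested in the authors' deposited table. They include scpp5 (2.19 and 6.85 FPKM) and fam20cb (1 of 2), a copy of the secretory pathway kinase (6.09 and 4.27 FPKM).

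The protease gene phex (ENSORLG00000014048), on chromosome 20 at 24491009 to 24501938, was untested, with 9.26 FPKM in DMSO and 5.99 FPKM in TCDD. Its mean level of 7.62 FPKM lies below 13.7 FPKM, the lowest mean of any gene that the authors tested. No direction can be read from it.

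The tested gene that supplies pyrophosphate, which holds mineral back, did not pass. The nucleotide pyrophosphatase gene enpp1 (ENSORLG00000012085), on chromosome 24 at 5697725 to 5717147, is the main source of extracellular pyrophosphate, and its loss in zebrafish leads to mineral in soft tissue. Its level was 38.2 FPKM in DMSO and 63.2 FPKM in TCDD (log2 0.73, p = 0.0269 and q = 0.104, from the authors' deposited table). Among tested genes, 77.7% had a lower log2 fold change. The untested ankha (ENSORLG00000011729), on chromosome 20 at 19296885 to 19305596, a copy of the pyrophosphate exporter gene, had 4.32 and 8.28 FPKM, a mean of 6.30 FPKM that lies below the lowest tested mean, so no direction can be read from it. On the FPKM scale the ratio of alpl to enpp1 was 0.858 in DMSO and 0.569 in TCDD, a difference that has no test. The relatives enpp4 (12.5 and 9.58 FPKM) and enpp5 (5.77 and 5.79 FPKM) were untested.

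The member by spelling, ankhd1 (ENSORLG00000006908), lies on chromosome 10 at 15745450 to 15770079. Its level was 35.4 FPKM in DMSO and 31.6 FPKM in TCDD (log2 -0.16, p = 0.663 and q = 0.791, from the authors' deposited table).

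**Figure D3:**
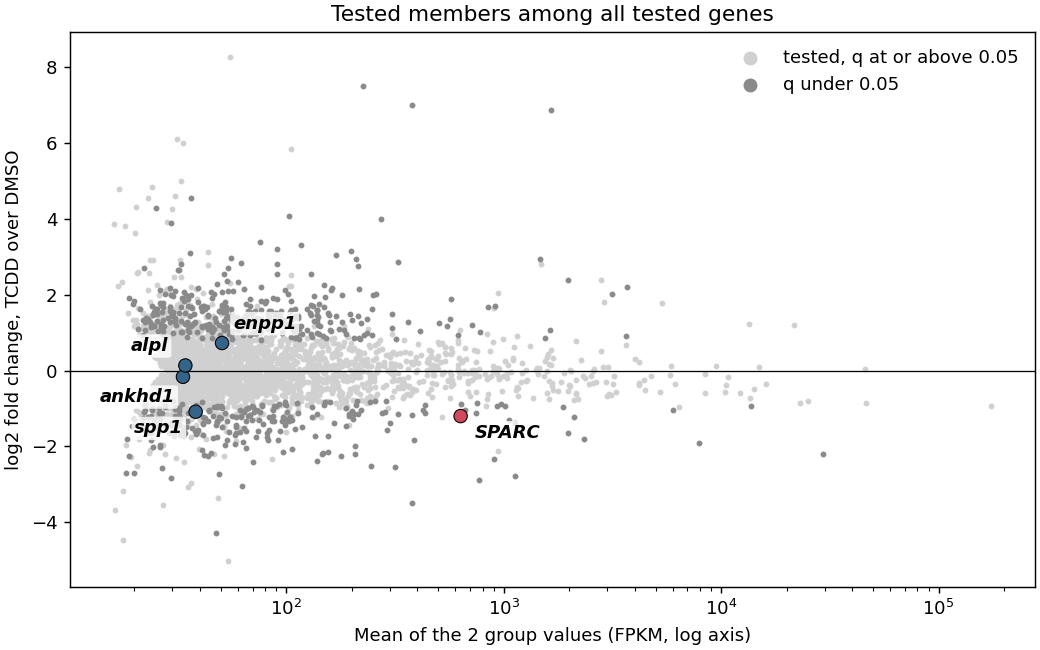
Log2 fold change of TCDD over DMSO against the mean of the group values in FPKM (log axis) for the tested genes above 0 in both groups, with genes past q 0.05 in dark grey and the 5 tested members as large points. SPARC, in red, is the called member at log2 -1.20, and spp1, enpp1, alpl and ankhd1, in blue, lie at lower levels and did not pass.

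Over the 4 lists of mineral pathway genes together, 10 of 69 rows were tested in the authors' deposited table. Of these 2 fell and 1 rose, with a median log2 fold change of -0.37. All tested genes had a median of 0.05, with 7.46% called lower and 10.7% higher. The untested rows of these lists were higher in DMSO for 28 genes and in TCDD for 24. Untested values have no p, and no share over all untested genes stands beside such counts. No direction is therefore read from them for any list.

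Most tested markers of the cells that make the matrix fell, as SPARC did. The shares over all tested genes were 7.46% called lower and 10.7% higher. In the authors' deposited table, 5 of 8 tested osteoblast markers fell and 0 rose, and the summed level of the 15 rows was 3827 FPKM in DMSO and 734 FPKM in TCDD. The 5 are the type I collagen genes col1a2 and col1a1b, the type X collagen gene col10a1, the periostin gene postnb and the osteoblast transcription factor gene sp7. Their log2 fold changes, in that order, were -2.32, -2.51, -2.88, -1.99 and -2.69. Collagen genes weigh most in those sums: col1a2 had 1510 and 302 FPKM, col10a1 1363 and 185 FPKM, and col1a1b 419 and 73.8 FPKM. By contrast, sp7 had 34.4 and 5.34 FPKM (authors' deposited table, q = 0.0411). The channel gene panx3 had 34.0 and 1.55 FPKM but was not called (authors' deposited table, q = 0.389), and TNFRSF11B, the osteoprotegerin gene, had 26.6 and 34.8 FPKM (authors' deposited table, q = 0.747). Of the untested osteoblast markers, 5 were higher in DMSO and 2 in TCDD. The latter were twist1a (13.4 and 22.4 FPKM) and bmp2b (7.42 and 12.5 FPKM). The untested receptor gene pth1rb had 0.638 FPKM in DMSO and was listed at 0 in TCDD. Tested osteoblast markers had a median log2 fold change of -2.60, while that of SPARC was -1.20 and that of alpl 0.13. Of 8 tested cartilage markers, 6 fell and 0 rose by the authors' deposited table, and 19 rows summed to 795 and 333 FPKM, with none at 0. They were col11a2, matn3a, sox9b, hapln1a and a pair of COL2A1A rows, at log2 fold changes from -2.09 to -1.32, and matn1 had 58.8 and 46.8 FPKM (authors' deposited table, q = 0.542). COL2A1A stands as separate rows under a shared symbol, between which reads could be split. Of the untested cartilage markers, 9 were higher in DMSO and 2 in TCDD. The latter were other copies of named markers, SOX9 (3.97 and 9.61 FPKM) and hapln1b (3.82 and 6.14 FPKM).

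Some markers of the other cell types in the dissection were also called, while most of the tested ones were not. Their counts stand beside 7.46% called lower and 10.7% higher over all tested genes. Of 14 tested fast muscle markers, 5 fell and 0 rose by the authors' deposited table, and 15 rows summed to 440403 and 250472 FPKM, with none at 0. The 5 were mylpfa, pvalb4, TNNI2 (3 of 5), mybpc2b and tpma. Most abundant of the others was pvalb1 (228225 and 119442 FPKM, authors' deposited table, q = 0.0915). Also not called were ckmb (44944 and 46478 FPKM, authors' deposited table, q = 0.927) and mylpfb (17987 and 14089 FPKM, authors' deposited table, q = 0.477). Of 14 tested epidermis markers, 4 rose (cldne, cldni and the epcam copies) and 1 fell (krt5) in the authors' deposited table, with sums of 21852 and 17793 FPKM and none at 0. The skin keratin gene krt15 had 11361 and 10152 FPKM (authors' deposited table, q = 0.781). Of 4 tested leukocyte markers, 2 rose (il1b and ptprc) and 0 fell in the authors' deposited table, and the 15 rows summed to 211 and 589 FPKM. Those sums include il1b, at 36.8 and 303 FPKM, and the untested SPI1, on a locus of 288 bases, at 0 and 43.1 FPKM. Untested leukocyte rows were higher in DMSO for 4 genes and in TCDD for 6. The leukocyte gene cd74a had 68.8 and 90.7 FPKM (authors' deposited table, q = 0.406), and lyz was listed at 0 in both groups. Of 4 tested adipocyte markers, 1 fell (gpd1b) and 0 rose in the authors' deposited table, with sums of 533 and 669 FPKM, and cidea and fabp11b were listed at 0 in both groups. The lipase gene LPL had 369 and 539 FPKM (authors' deposited table, q = 0.221). The part of these shifts in the values of SPARC and the other members was not tested.

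The 2 tested genes of bone-resorbing cells were not called at q 0.05, though 1 was called higher at a q threshold of 0.1 and at a mean FPKM of at least 50. By the authors' deposited table, 0 of 2 tested osteoclast markers were called, beside 18.2% of all tested genes. Of the 2, 1 had an unadjusted p under 0.05, the matrix protease gene ctsk, beside 32.6% of all tested genes. It had 70.8 and 126 FPKM (p = 0.0107 and q = 0.0558, from the authors' deposited table), and the carbonic anhydrase gene ca2 had 90.0 and 121 FPKM (authors' deposited table, q = 0.392). The untested acid phosphatase gene acp5a had 20.1 and 10.4 FPKM, whereas the untested tcirg1 had 5.34 and 13.8 FPKM. Untested osteoclast rows were higher in DMSO for 7 genes and in TCDD for 7. The 16 rows summed to 247 and 335 FPKM, and CALCR and DCSTAMP were listed at 0 in TCDD and ocstamp in DMSO.

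**Figure D4:**
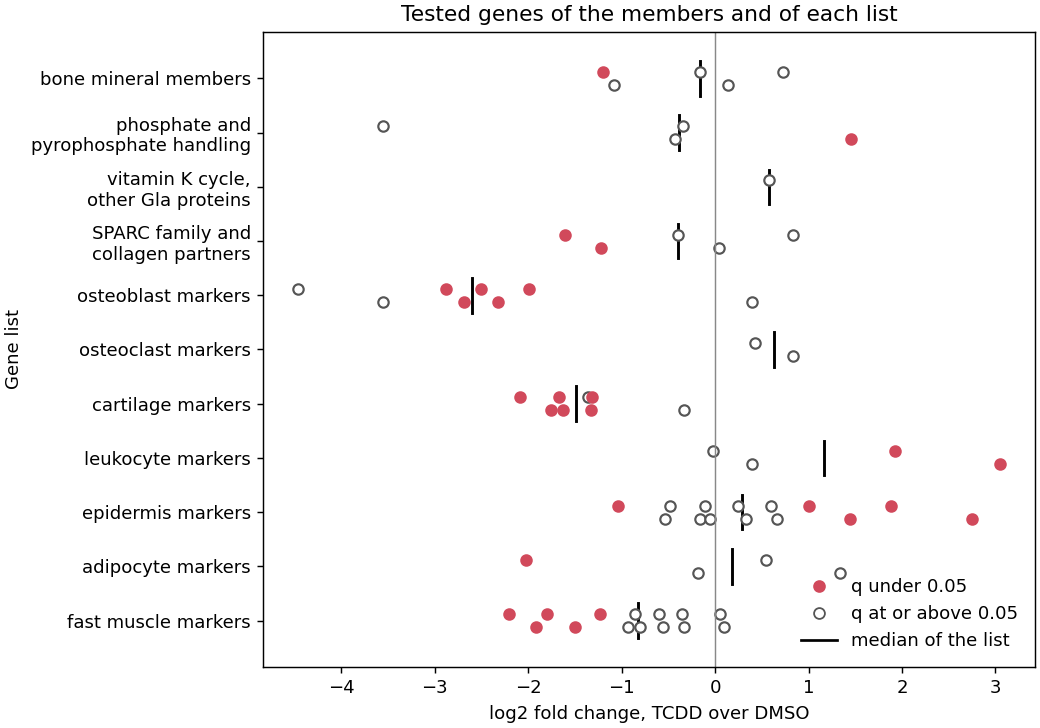
Log2 fold change of TCDD over DMSO for the tested genes among the members and in each list, 1 circle per gene, filled red where q is under 0.05, with a black line at the median of the list. Tested cartilage markers lie to the left (median -1.49), as do osteoblast markers (median -2.60) apart from TNFRSF11B at 0.39. Fast muscle markers have a median of -0.83, and the members spread on either side of 0.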

How the data were processed

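The labels give 6 samples, 3 per group. Bowtie2 2.2.6 and DESeq2 are named, without their roles, in the submitters' processing notes, whereas per the file headers the columns of the 1 table are laid out like Cuffdiff output. The genome build and the annotation are in neither source. The authors deposited 1 value per gene and group, read as FPKM from that layout, a test statistic (a score), a p-value and a q-value. How the 3 libraries were combined is not given. Depth is therefore unknown, and no test across samples was run.

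From these values log2 fold changes (TCDD over DMSO) were computed without a pseudocount, because the authors' log2 column, as deposited, has 993 unreadable cells. Genes listed at 0 in a group have no fold change. The q-values equal Benjamini-Hochberg values over the 3286 tested genes to within 5.11e-07, with an adjustment routine tested on simulated data. Start positions in the table were read as counted from 0 and are printed counted from 1: with that reading 50.9% of loci under 500 bases have a length that is a multiple of 3, against 22.4% otherwise.

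The text names all members, the called genes and the most abundant uncalled tested gene of each of 11 lists, and the 3 tested genes nearest to each tested member. Other genes were chosen after their values were seen. Members and lists were chosen with earlier results of these data known. Alternatives were other scalings, pseudocounts, q thresholds, Bonferroni adjustment and a minimum mean FPKM of 50. Python 3.11.15, pandas 2.3.3, numpy 2.4.6 and matplotlib 3.10.9 were used.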

Additional observations from a re-analysis of the deposited data

Results flagged for a closer look

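Among the untested rows of the members and the 4 mineral pathway lists, slc34a2b had 23.9 FPKM in TCDD and 1.42 FPKM in DMSO (authors' deposited table). This sodium-dependent phosphate cotransporter gene lies on chromosome 4 at 30773503 to 30780205. It was singled out, by a limit of at least 20 FPKM in TCDD and 4 times the DMSO value that was chosen after seeing the data, as a signal in rows that no comparison uses. It has no test, and its locus of 6703 bases is not a short one. Its mean level lies below 13.7 FPKM, the lowest mean of a tested gene, so no direction can be read from it. The limit looked only for higher values in TCDD, so untested rows with the higher value in DMSO could not be singled out.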

How the results depend on the processing

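No paired analysis was possible because each group has a single deposited value per gene, and for the same reason no replicate could be left out. Of 59 log2 fold changes of members and named genes, 54 kept their direction with equal FPKM totals, which raise each by 0.25, and all 59 did so with equal totals after leaving out the 13 most abundant genes (a shift of 0.03), with the median of tested genes at 0, and with a pseudocount of 1 or 10. The 5 that reversed with equal totals were ankhd1 (0.082), krt15 (0.084), sema6dl (0.084), ATP6 (0.057) and drg2 (0.051), none of them called. No log2 fold change of bglap could be given under the main setting. At a q threshold of 0.1 the members called lower were 2, as spp1 passed (q = 0.0796). Of all 3286 tested genes, 350 were called lower and 484 higher at that threshold. The mineral pathway genes called higher at a q threshold of 0.1 were 2, as ctsk passed (q = 0.0558). As an osteoclast marker, ctsk was likewise called higher at that threshold and at a mean FPKM of at least 50. Bonferroni adjustment left 0 calls of any kind, members, pathway lists or all genes, and SPARC had 0.164, since the smallest p times the number of tested genes exceeds the threshold. Over all tested genes, 245 were called lower and 352 higher; these became 116 and 184 at a q threshold of 0.01 and 153 and 223 at a mean FPKM of at least 50, where fewer genes are tested and 1 mineral pathway gene was called lower. Without ankhd1, a setting chosen after seeing the data, 1 member was still called lower. Of the 8 members 3 were untested: phex and ankha lay below the lowest tested mean of 13.7 FPKM, whereas bglap is among the 2743 untested genes at or above it.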

Other observations

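By the distance between the log2 group values in DMSO and TCDD, over these 2 groups only, the tested genes nearest to SPARC were OLMA1 (ENSORLG00000000136, at 872 and 392 FPKM), the muscle calsequestrin gene casq1a (894 and 433 FPKM) and the ribosomal protein gene rps13 (829 and 451 FPKM). All 3 fell (authors' deposited table, q = 0.00427, 0.0053 and 0.0328). The genes nearest to alpl were the protein phosphatase gene ppp1cb (32.7 and 36.2 FPKM), spred2a (32.2 and 36.5 FPKM) and ydjc (32.8 and 36.9 FPKM), and those nearest to enpp1 were pwp1 (37.8 and 61.8 FPKM), rela (39.0 and 64.7 FPKM) and reep3b (37.0 and 64.6 FPKM). Nearest to spp1 were si:dkey-12j5.1 (51.4 and 24.2 FPKM), naa50 (53.9 and 24.3 FPKM) and OLPC4 (49.2 and 24.9 FPKM), and nearest to ankhd1 were sema6dl (35.5 and 31.7 FPKM), ATP6 (35.9 and 31.5 FPKM) and drg2 (36.0 and 31.5 FPKM). None of the 12 genes nearest to these 4 members was called in the authors' deposited table. With 2 values per gene such likeness is a matter of level and ratio alone.

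The genes on either side of bglap in the table, ERP27 and the phosphate cotransporter gene slc34a2a, were listed at 0 in DMSO and at 5.20 and 0.400 FPKM in TCDD, and neither was tested. The gap between the bglap and slc34a2a loci is 7321 bases.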
